A study of Homo sapiens with 4 samples.

Results

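The genes described are 10 members of the ETS family of transcription factors, *ELF1*, *ELF2*, *ELF3*, *ELF5*, *EHF*, *SPDEF*, *ELK1*, *ELK3*, *ELK4* and *GABPA*, and the measurement is where Flag-tagged FLI1 was found on chromatin at their loci. They were listed by gene symbol and not by a cutoff on the peak values, but with earlier results of these data known. They are 10 of the 28 ETS genes and of the 20046 protein-coding genes annotated. FLI1, itself an ETS factor, was overexpressed with a Flag tag in HK1, a long-established line of nasopharyngeal carcinoma cells, and an antibody to Flag was used for ChIP-seq, so that the peaks are those of the overexpressed protein. Both groups carried the FLI1 construct and were collected after 24 h, the control with PBS and the other with interferon-γ (IFN-γ), a cytokine of activated T and NK cells. Each condition had 1 library, and nothing below tests an effect of IFN-γ. The control list held 30819 peaks and the IFN-γ list 39654, and the IFN-γ library was 1.46 times as deep, judged from the lowest background of each list. A summit was covered by a median of 16 fragments (control) and 22 fragments (IFN-γ). A region without a peak missed the cutoff of its list and may still have been bound. The peak lists hold no expression values, so neither the level of the 10 genes nor the cell type could be checked.

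ETS factors share a winged helix-turn-helix domain that reads a GGAA core, and the bases beside the core and the partner proteins separate the subfamilies. *ELF3*, *ELF5*, *EHF* and *SPDEF* encode the factors of epithelia and glands. *ELF1*, *ELF2* and *GABPA* encode factors of most cell types, GABPA being the DNA-binding subunit of GA-binding protein, which works with a GABPB subunit. *ELK1*, *ELK3* and *ELK4* encode the ternary complex factors, which bind beside serum response factor (SRF) and are phosphorylated by MAP kinases.

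The sequence under the summits was searched for ETS motifs at the promoters and in the rest of the loci. The ETS octamer searched was CAGGAAGT or CCGGAAGT, on both strands, and it contains the core. It lay within 100 bp of the summit at 5 member promoter peaks in at least 1 list and at 1 peak inside *ELK3*. These 6 sites are printed to show the sequence that was matched, and whether FLI1 bound at them was not tested. They are from GRCh38, 5′ to 3′ on the strand that carries the octamer, with the octamer in capitals. They are *EHF* chr11:34634233-34634262 (plus strand), *ELF2* chr4:139084508-139084537 (plus), *ELK3* exon 1 chr12:96194505-96194534 (minus), *ELK3* intron 1 chr12:96199135-96199164 (plus), *ELK4* chr1:205631519-205631548 (minus) and *GABPA* chr21:25734894-25734923 (minus).
EHF intron 1: tcatattgaaaCAGGAAGTcagtaagctgt
ELF2 internal promoter: ccgcgcccaaaCAGGAAGTcccggacgctt
ELK3 exon 1: gtgtgtgagagCAGGAAGTtggagcagtca
ELK3 intron 1: agatgtagtaaCAGGAAGTacagggcacta
ELK4: gcgcggcacaaCAGGAAGTgggggcggggg
GABPA: cggagccagggCCGGAAGTagagcggaggt
All but the *GABPA* site begin with CA, and the *GABPA* site begins with CC. The *GABPA* and *ELK3* exon 1 sites lie in transcribed untranslated sequence of an annotated transcript, and the others do not.

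A second kind of sequence was found under 3 summits away from the promoters of the members, tandem runs of the GGAA core. Printed are the longest runs within 100 bp of a summit at these loci. They are from the plus strand with each GGAA in capitals. The *ELF1* run has 10 units (chr13:40909719-40909778), the *ELF2* run 19 units (chr4:139219728-139219823) and the *ELK1* run 16 units (chrX:47608216-47608299).
ELF1, 3′ of the gene: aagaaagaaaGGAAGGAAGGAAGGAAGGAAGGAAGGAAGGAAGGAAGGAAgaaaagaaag
ELF2, 5′ of the gene: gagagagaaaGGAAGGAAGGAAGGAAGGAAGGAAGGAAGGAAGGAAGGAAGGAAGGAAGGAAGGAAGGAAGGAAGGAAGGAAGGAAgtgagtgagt
ELK1, 3′ of the gene: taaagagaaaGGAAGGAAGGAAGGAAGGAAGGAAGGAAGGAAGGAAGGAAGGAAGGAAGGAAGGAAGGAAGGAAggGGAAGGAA
Aligned reads over such repeats depend on how uniquely they can be placed, and the placement settings are not given in the sources used here.

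Of the 10 genes, 8 had a promoter peak in the control library, where a promoter is the 3 kb either side of any annotated transcription start site (TSS), and 61.9% of all protein-coding genes had one. In the IFN-γ library 7 of the 10 did, against 59.7% of coding genes, and the 7 were the same genes in both libraries, against 56.0% of coding genes with a peak in both. The counts were thus near the background of the genome. *ELF5* and *SPDEF* had no promoter peak in either library, and *ELF3* had one in the control library alone. The epithelial genes other than *EHF* therefore lacked a promoter peak in the IFN-γ library, while *ELF1*, *ELF2*, *GABPA* and the 3 ELK genes had one in both.

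The strongest promoter peak of each gene was taken by p-value. Its fold enrichment over local background had a median of 10.5 (control) and 9.12 (IFN-γ) over coding genes with a promoter peak. Over the members the median was 13.0 (control, 8 genes) and 22.2 (IFN-γ, 7 genes).  The range was wide. *ELF2* and *ELK4* were among the strongest coding promoters of the control library, of which 2.39% and 3.55% were at least as enriched, and *ELK1* was among the weaker, with 84.8% at least as enriched. The weakest of the members was *ELF3*, at 2.99 in the control library.

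*ELF3* (ENSG00000163435, chr1:202007945-202017183, plus strand) encodes a factor of differentiating epithelial cells that is induced by inflammatory cytokines. Its promoter peak, in the control library alone, had a fold enrichment of 2.99 and a pileup of 11 fragments. It ranked 30306 of 30819 by p-value, and its summit lay 170 bp from the TSS of the MANE Select transcript (the reference transcript agreed by RefSeq and Ensembl) and 46 bp from that of the antisense gene *ELF3-AS1*, so that the peak cannot be assigned to either. The peak was lost at a q-value cutoff of 0.01. The strongest peak near *ELF3* was at the promoter of its neighbour *RNPEP*, an aminopeptidase gene, with fold enrichments of 24.8 and 23.2 in the control and IFN-γ libraries. Beyond the 3′ end, control peaks of 4.32 and 5.10 overlapped a single IFN-γ peak of 4.62.

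*ELF5* (ENSG00000135374, chr11:34478791-34525193, minus strand), a regulator of mammary alveolar and other glandular epithelium, had 3 peaks in the control library within the gene and 50 kb either side and 0 in the IFN-γ library. The 3 were weak. A peak at the promoter of the catalase gene *CAT* had a fold enrichment of 6.30 with 14 fragments, a peak in intron 2 of *ELF5* had 4.34 with 8 fragments, and a peak 173 bp from the TSS of the noncoding gene *LINC02707* had 4.38 with 8 fragments. At the depth of the IFN-γ library the same densities would give 20.4, 11.6 and 11.6 fragments. In that list 8, 7 and 7 would have reached the lowest p-value. Because that library was the deeper, a density called in the control list passes there by construction. Why no peak was called there was not tested.

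*EHF* (ENSG00000135373, chr11:34621093-34663288, plus strand), which lies next to *ELF5* and encodes a factor of glandular and airway epithelium, had 4 peaks in each library, and all 4 were shared. None was at the MANE Select TSS. The promoter peak was in intron 1, 13.2 kb downstream of that TSS and within 3 kb of another annotated start, 1.82 kb from the control summit. Its fold enrichment was 8.64 in the control library, from 20 fragments. In the IFN-γ library the fold enrichment was 23.0, from 79 fragments. After scaling for depth the IFN-γ pileup was 2.71 times the control pileup (95% interval 1.64 to 4.68, exact binomial, for counting error only). Of the promoter pairs of the genome 98.7% had a lower ratio. That share depends on the class of the peak, which was not a promoter peak with a window of 1 kb or with 1 TSS per gene. Distal pairs had higher ratios, with a median of 1.24 against 0.874 for promoter pairs. The octamer lay 40 bp from the control summit and 10 bp from the IFN-γ summit.

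The upstream peak of *EHF*, with its summit at −21.3 kb, between the gene and *ELF5*, also had more fragments in the IFN-γ library. Its fold enrichments were 15.2 and 31.3, with pileups of 48 and 141 fragments and a ratio of 2.02 (1.44 to 2.86). The summits were 1 bp apart. The other peaks of the locus did not move in this way: the peak in intron 6 had fold enrichments of 20.4 and 27.8 and a ratio of 1.09 (0.769 to 1.57), and the peak beyond the 3′ end had 11.2 and 10.1 and a ratio of 0.843 (0.462 to 1.55). No octamer lay in any of these 3 peaks. The 101 bases around the IFN-γ summits of the upstream peak (chr11:34599758-34599858) and of the intron 6 peak (chr11:34655021-34655121) are shown, because they are strong peaks without an octamer. They are from the plus strand, with the core, GGAA or its complement TTCC, in capitals.
EHF upstream: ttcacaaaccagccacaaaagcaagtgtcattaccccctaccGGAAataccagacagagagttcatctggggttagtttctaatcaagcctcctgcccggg
EHF intron 6: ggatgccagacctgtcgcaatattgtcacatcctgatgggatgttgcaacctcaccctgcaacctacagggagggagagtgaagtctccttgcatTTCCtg
Each window holds 1 core. Within 100 bp of these summits there were 3 cores at the upstream peak and 2 at the intron 6 peak.

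*SPDEF* (ENSG00000124664, chr6:34537802-34556333, minus strand), a regulator of goblet and secretory cells, had 2 peaks in each library, none at its promoter. The shared peak, 11.8 kb upstream, had fold enrichments of 14.4 and 18.4, pileups of 33 and 60 fragments and a ratio of 1.25 (0.803 to 1.97), close to the median of 1.24 over the distal pairs of the genome. It had no core within 100 bp of either summit, the only shared peak at these loci without one. It had the heptamer TGANTCA of AP-1, a dimer of FOS and JUN proteins. The 101 bases around the IFN-γ summit (chr6:34568129-34568229, plus strand) show that heptamer in capitals.
SPDEF upstream: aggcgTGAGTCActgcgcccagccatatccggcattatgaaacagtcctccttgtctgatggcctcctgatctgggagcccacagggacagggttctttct
The unshared peaks of *SPDEF* had fold enrichments of 6.56 (control) and 3.45 (IFN-γ).

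*ELF1* (ENSG00000120690, chr13:40931924-41061440, minus strand), a factor of haematopoietic and most other cells, had its promoter peak not at the MANE Select TSS but at the outermost annotated start, at position 41061440, with the summits at −40.9 and −41.2 kb from the former. This start lies beside that of *WBP4*, a splicing factor gene read the other way, and the summits lay 1299 and 958 bp from the *WBP4* TSS, so that the peak belongs to both promoters. Fold enrichments were 15.6 and 11.7, pileups 47 and 52 fragments, and the ratio 0.760 (0.502 to 1.15). The summits were 341 bp apart, so that the ratio compares different positions of the peak. The whole peak held 0 octamers in either library. The GGAA run 3′ of the gene had a peak in both libraries, with fold enrichments of 5.80 and 10.6, pileups of 16 and 30 and a ratio of 1.29 (0.680 to 2.53).

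*ELF2* (ENSG00000109381, chr4:139028112-139177218, minus strand), a broadly expressed relative of *ELF1*, had the strongest promoter peak of the 10 genes in the control library, and it was at an internal start. The summits lay 4 and 5 bp from the TSS at 139084496, in intron 4 of the MANE Select transcript. The fold enrichment was 45.1 in the control library, with 96 fragments and rank 364, and 29.5 in the IFN-γ library, with 113 fragments and rank 922. The scaled ratio was 0.808 (0.610 to 1.07), an interval that holds 1. The peak contained 3 octamers, the nearest 30 and 31 bp from the summits. The MANE Select promoter had a weaker peak without an octamer, with fold enrichments of 8.60 and 7.13, 22 and 18 fragments and a ratio of 0.562 (0.284 to 1.10). A peak in intron 1 of the MANE Select transcript was called in the IFN-γ library alone, with a fold enrichment of 5.25 and 14 fragments.

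Around *ELF2* the ratios whose interval lay above 1 were outside the gene. The run of 19 cores, with its summit at −42.6 kb, had fold enrichments of 9.73 and 22.5, pileups of 19 and 56 fragments and a ratio of 2.02 (1.185 to 3.608). At the promoter of *NOCT*, a neighbouring gene for a circadian phosphatase, a wide control peak of 1973 bp with 42 fragments and a fold enrichment of 16.1 overlapped 2 IFN-γ peaks. The first had 146 fragments, a fold enrichment of 35.1 and a summit 9 bp from the control summit, which gave a ratio of 2.39 (1.68 to 3.45). The second, with 26 fragments and a fold enrichment of 7.05, had its summit 904 bp away, and its ratio of 0.425 (0.250 to 0.710) sets different positions of the promoter against each other.

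*GABPA* (ENSG00000154727, chr21:25734570-25772460, plus strand) shares its promoter with *ATP5PF*, which encodes a subunit of the mitochondrial ATP synthase and is read the other way. Its promoter peak had fold enrichments of 22.5 and 22.2, pileups of 65 and 88 fragments, ranks 1426 and 1861 and a ratio of 0.930 (0.667 to 1.30). The peaks covered nearly the same bases, but the summits were 700 bp apart, at 675 bp downstream of the MANE Select TSS in the control library and 25 bp upstream of it in the IFN-γ library. The ratio therefore sets different positions of the promoter against each other. The single octamer of the peak lay 739 bp from the control summit and 39 bp from the IFN-γ summit. The only other peak of the locus was a control peak just beyond the 3′ end, with a fold enrichment of 3.61 and 7 fragments.

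*ELK1* (ENSG00000126767, chrX:47635521-47650604, minus strand), the ternary complex factor best known as a target of ERK, had the weakest shared promoter peak of the 10 genes. It was in exon 1, with fold enrichments of 5.84 and 6.31, pileups of 11 and 15 fragments, ranks 20634 and 24397 and a ratio of 0.937 (0.402 to 2.25). The peak held 0 octamers. Its neighbours were somewhat stronger: the *UXT* promoter had 7.26 and 11.0, with a ratio of 1.16 and an interval that holds 1, and the run of 16 cores, 1.29 kb from a TSS of the synapsin gene *SYN1*, had 6.33 and 7.49 with a ratio of 1.03 (0.470 to 2.34).

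*ELK3* (ENSG00000111145, chr12:96194375-96269824, plus strand), which encodes the ternary complex factor with repressor activity also called Net, had 2 promoter peaks in each library. The peak in exon 1, which carries the octamer 43 and 4 bp from its summits, had fold enrichments of 11.2 and 6.52 with 22 and 24 fragments and a ratio of 0.749 (0.402 to 1.40). The peak 1.32 kb into the gene, in intron 1, had no octamer, fold enrichments of 10.5 and 10.6, 27 and 44 fragments and a ratio of 1.12 (0.678 to 1.88). A further peak of intron 1, 4.80 kb from the TSS (chr12:96199001-96199299), was called in the IFN-γ library alone, with a fold enrichment of 13.6 and 44 fragments. It was among the upper 16.4% of that list by p-value. The same density would give 30.2 fragments at the depth of the control library, where 7 would have reached its lowest p-value. The octamer lay 24 bp from its summit, and this was the only peak away from a promoter with an octamer within 100 bp of its summit at these loci.

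*ELK4* (ENSG00000158711, chr1:205597556-205632011, minus strand), also called SAP-1, had the strongest promoter peak of the 10 genes in the IFN-γ library. In intron 1 just after the TSS, it had fold enrichments of 41.0 and 41.5, pileups of 91 and 122 fragments and ranks 461 and 566. The scaled ratio was 0.921 (0.696 to 1.22). The peak held 3 octamers, the nearest 13 and 8 bp from the summits. The 3 other peaks of the locus were also shared and lay at promoters of *SLC45A3* and *MFSD4A*, genes of transporter families, with ratios of 0.824, 1.40 and 1.42 and intervals that all hold 1. In the pair with the ratio of 1.40 the summits were 477 bp apart.

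Within the genes and 50 kb either side there were 33 peaks in each library, between 2 and 5 per gene in the control library and between 0 and 6 in the IFN-γ library. Per length this was 21.2 per Mb in both when the 10 loci were pooled. The median over the 10 loci was 21.6 (control) and 25.8 (IFN-γ), and the median over coding loci was 18.2 (control) and 21.5 (IFN-γ). Of the 33 control peaks 10 were at a promoter of the gene, 3 elsewhere in it and 20 in the flanks, and of the 33 IFN-γ peaks 9, 5 and 19. At the promoter of another gene, coding or not, were 9 of the peaks in each library, and 14 control and 15 IFN-γ peaks were at no promoter. The distance of 50 kb is arbitrary. On the inner side the peak nearest to it was 47.3 kb from *ELK4* in the IFN-γ library, with a fold enrichment of 13.4. On the outer side it was 50.3 kb from *EHF* in the control library, with 4.38.

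Of the 33 peaks in each library, 25 overlapped a peak of the other library, 75.8% (57.7% to 88.9%, exact Clopper-Pearson, for counting error only). Over all peaks 22.5% of the control list and 39.0% of the IFN-γ list overlapped none in the other, against 8 of 33 here in each. The 8 unshared control peaks had fold enrichments from 2.99 to 6.56 and were all in the lower part of their list, split at the median. The 8 unshared IFN-γ peaks had fold enrichments from 3.45 to 13.6, with the peak of *ELK3* intron 1 the only one in the upper part. Of these 16 peaks, 1 was at a promoter of its gene, that of *ELF3*.

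The shared peaks gave 26 pairs, 9 at promoters of the members and 17 elsewhere. The promoter pairs had a median ratio, IFN-γ over control and scaled for depth, of 0.921 (range 0.562 to 2.71). It was also 0.921 over the pairs with summits within 100 bp of each other. The median over the promoter pairs of the genome was 0.874. One of the 9 pairs, that of *EHF*, had a ratio of at least 1.5, against 11.2% of promoter pairs, and 1, at the MANE Select promoter of *ELF2*, had at most the inverse of 1.5, against 24.8%. With 1 TSS per gene the *EHF* pair was not at a promoter. Away from the promoters of the members the median of 17 pairs was 1.25, and 8 of these, at promoters of other genes, had a median of 1.09. Of the 9 pairs at no promoter, whose median was 1.29, 3 had a ratio of at least 1.5, against 33.0% of distal pairs, and 0 had at most its inverse, against 6.55%. The interval lay above 1 in 4 of the 26 pairs and below 1 in 1, with no adjustment for the number of pairs. The share of all pairs with such an interval was not computed, so these counts have no background. The same 5 pairs had an interval without 1 when ratios were taken relative to the median pair.

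**Figure D1:**
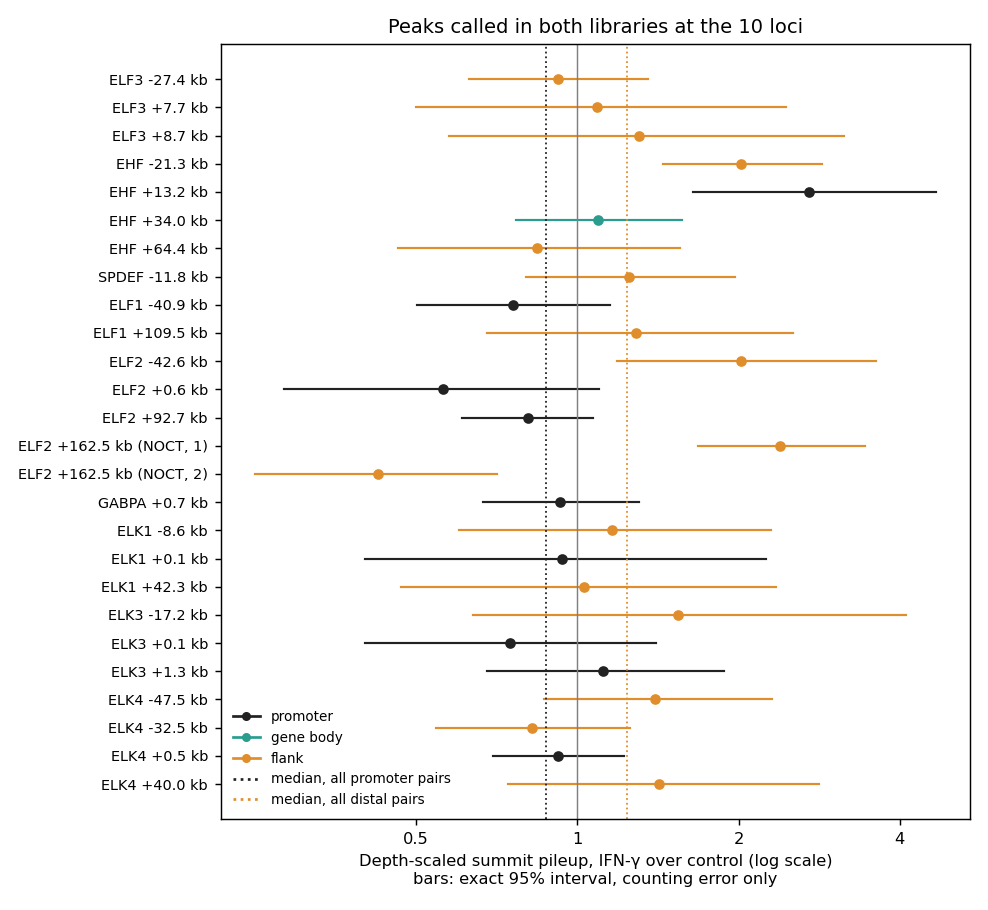
Summit pileup in the IFN-γ library over that in the control library, scaled for depth (log axis), for the 26 pairs of overlapping peaks, named by gene and distance of the control summit from the MANE Select TSS, with exact 95% intervals for counting error as bars. The 4 intervals above 1 are those of the *EHF* promoter, the upstream peak of *EHF*, the GGAA run of *ELF2* and the first of the 2 pairs at the *NOCT* promoter (NOCT, 1), and the dotted lines are the medians over promoter pairs (0.874) and distal pairs (1.24).

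The octamer was within 100 bp of the summit in 4 of 10 member promoter peaks in the control library, 40.0% (12.2% to 73.8%), and 13.4% of all promoter peaks had it. In the IFN-γ library it was in 5 of 9, 55.6% (21.2% to 86.3%), against 15.0%. The intervals are wide, and they treat the peaks as independent although *ELF2* and *ELK3* gave 2 each. The IFN-γ interval lies above the background while the control interval holds it, and no test against the background was made. The extra promoter in the IFN-γ library was *GABPA*, whose summit was at another place in the same peak. At the peaks at no promoter the octamer was in 0 of 14 control peaks, against 12.0% of distal peaks, and in 1 of 15 IFN-γ peaks, against 12.3%. It was in 0 of 9 peaks at promoters of other genes in each library. Over all 33 control peaks of the loci it was in 4, 12.1%, against 12.8% of the control list. Over all 33 IFN-γ peaks it was in 6, 18.2% (6.98% to 35.5%), against 13.5% of the IFN-γ list. Whether promoters and the rest of the loci differ in the octamer was not tested.

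The core itself is common. It was within 100 bp of all member promoter summits and of 94.3% and 97.1% of all promoter summits in the control and IFN-γ libraries. A run of at least 4 cores was under 2 of 14 control and 2 of 15 IFN-γ peaks at no promoter, against 13.2% and 17.0% of distal peaks, at the *ELF1* and *ELF2* runs printed above. The AP-1 heptamer was at 4 of 14 and 5 of 15 of them, against 27.7% and 29.6%, close to the background. Among the peaks at promoters of other genes it was at 4 of 9 in the control library, 44.4% (13.7% to 78.8%) against 10.1% of promoter peaks, and at 3 of 9 in the IFN-γ library, 33.3% (7.49% to 70.1%) against 13.6%, and 2 of these peaks in each library were at *SLC45A3*.

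The 10 genes also differed in the kind of promoter they have. In the 500 bp either side of the MANE Select TSS the ratio of observed to expected CpG, which is high in CpG islands, was 0.682 at *ELK1*, 0.746 at *GABPA*, 0.798 at *ELK3*, 0.879 at *ELF2* and 0.941 at *ELK4*. It was 0.123 at *EHF*, 0.170 at *ELF1*, 0.191 at *SPDEF*, 0.271 at *ELF3* and 0.395 at *ELF5*. The 5 genes above 0.6 all had a peak within 3 kb of that TSS in both libraries, as did 76.4% of the 12814 such coding genes among control peaks and 70.6% among IFN-γ peaks. Of the 5 genes under 0.6 only *ELF3* had one, in the control library, against 19.9% and 21.5% of 6247 coding genes. *ELF1* had its peak at another start, where the ratio was 0.842, whereas the start next to the *EHF* peak had a ratio of 0.234. All 4 epithelial genes were thus on the CpG-poor side. With the 3 kb window *EHF* was the only 1 of the 10 with a peak called in both libraries at an annotated promoter that was poor in CpG. Its summits lay 1823 bp (control) and 1793 bp (IFN-γ) from the start, outside the 500 bp measured. With a window of 1 kb or with 1 TSS per gene the *EHF* peak was not at a promoter.

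In the RefSeq promoter table (GRCh38.p14), which holds 250 bases before and 50 after each start, all 10 genes were matched. The octamer was in the window of 2 of them, *ELK4* and *GABPA*, and in 7.02% of the 35116 promoters. The printed sites of *EHF*, *ELF2* and *ELK3* are therefore not in these windows, and neither is that of *ELK4*, which lies 363 bp from the nearest annotated start. The *ELK4* window holds another octamer.

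The other 18 ETS genes and 10 genes of partners and kinases gave the members a setting. Of the other ETS genes 12 had a promoter peak in the control library, 11 in the IFN-γ library and 11 in both, and *ERG*, *FLI1*, *FEV*, *ETV3L*, *SPI1* and *SPIC* had none in either. The highest fold enrichments among them were 35.7 at *ETV3* in the control library and 37.1 at *ETV6* in the IFN-γ library, the first under that of *ELF2* in the control library (45.1) and the second under that of *ELK4* in the IFN-γ library (41.5). Of the partners and kinases all 10 had a promoter peak in the control library, and 9 of them also in the IFN-γ library. *GABPB1*, which encodes the partner subunit of GABPA, had the highest of these, 58.0 and 45.5, more than any of the 10 genes. The median over the partners and kinases was 9.46 (control) and 6.78 (IFN-γ), under the medians over coding genes of 10.5 and 9.12. Over the other ETS genes it was 11.4 and 11.0. Of all coding genes, 61.9% had a promoter peak in the control library, 59.7% in the IFN-γ library and 56.0% in both.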

How the data were processed

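Peaks were deposited as 1 narrowPeak list per Flag ChIP library, and the 2 input libraries are not analysed here. Per the submitters' processing notes and the paper's methods, the authors used cutadapt 1.18 for trimming, Bowtie2 2.3.4.1 for alignment to GRCh38 and Picard for duplicates, and called peaks in each library with MACS2 2.1.2 at a stated p-value cutoff of 0.01. The lowest −log10 p in the deposited lists was 3.52 (control) and 3.46 (IFN-γ), stricter than that cutoff, and a region without a peak is read against these values. Whether the input entered the calling is not given in the sources used here. The deposited values are the −log10 p-value and −log10 q-value of each summit, its fold enrichment, a display score (not used) and the summit offset. Whole fragment pileups were solved from the authors' fold enrichment and −log10 p (relative error at most 6.21e-06), which gave whole numbers for 100% of peaks at a tolerance of 0.0001 on that error, and were scaled by the ratio of the lowest backgrounds, 1.46. No read totals are given, so intervals rest on these pileups and cover counting error only.

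Genes and TSSs were from GENCODE 44. A promoter was 3 kb either side of any TSS of the gene, a locus the gene and 50 kb either side, and peaks were shared at an overlap of 1 bp. The ETS octamer, the ETS core and the AP-1 heptamer were looked for within 100 bp of summits, on either strand. Peaks were ranked by p-value. All 10 members are named. Of the 2 comparison lists, the highest gene in each library and the genes without a promoter peak are named, with neighbours whose TSS lies within 3 kb of a listed peak. Members and lists were chosen with earlier results of these data known, and the CpG ratio and the AP-1 search were added after the data were seen. The alternatives were other promoter, locus, overlap and motif definitions, lists of equal length, cutoffs of 0.01 and 1e-05 on the q-value, 1 TSS per gene and ranking by fold. Of the steps tested on simulated data, 5 returned 100% of the known answers. The coverage of the ratio interval was checked apart and is not among these 5. Python 3.11.15, numpy 2.4.6, pandas 2.3.3, scipy 1.17.1, pysam 0.24.0, samtools 1.23.1 and matplotlib 3.10.9 were used.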

Additional observations from a re-analysis of the deposited data

How the results depend on the processing

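With 1 library per condition the intervals leave out variation between cultures, and ratios of weak peaks rest on few fragments. Of the values that answer a comparison, 31 recomputed ones moved little and 14 moved. The number of peaks at the 10 loci was 18 in each library with 10 kb flanks, and 53 and 54 with 100 kb flanks, by construction. The shared percentage was 57.6% in each library when peaks had to overlap by 50% and 54.5% when summits had to lie within 100 bp. It was 91.3% for control peaks at a q-value under 1e-05 and 92.6% for IFN-γ peaks in lists of equal length, where weak peaks are left out. With CCGGAAGT alone, 0% (control) and 11.1% (IFN-γ) of member promoter summits had the octamer, and with the core alone 100% in each. With 1 TSS per gene *ELF1* and *EHF* had no promoter peak, with a window of 1 kb *EHF* had none, and at a q-value under 0.01 *ELF3* had none. By fold rather than p-value the *ELK4* promoter peak ranked 337 instead of 566 in the IFN-γ library. No paired analysis was possible because control and IFN-γ cells gave 1 library each.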
